A study of Mus musculus with 8 samples.

Results

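The set comprised 10 genes that cut, protect or cross-link the extracellular matrix: the matrix metalloproteinase genes Mmp2, Mmp9 and Mmp14, the inhibitor genes Timp1, Timp2, Timp3 and Timp4, and the lysyl oxidase genes Lox, Loxl1 and Loxl2. They were found by name among the non-control probes of the array, where the 10 genes had 15 probes of 39429 and were 10 of 30139 gene names. The samples were left ventricles of 8 males of the inbred mouse strain C57Bl/6j, all 16 weeks old. In the last 8 weeks of life 4 mice ate a normal salt diet with 0.4% sodium and 4 a low salt diet with 0.05% sodium, with no other agent or allele named in the labels beyond the pentobarbital anaesthesia given to both groups before the tissue was taken. RNA of each mouse was labelled with Cy3 or Cy5 and read on 2-colour arrays, and each of the 4 arrays carried 2 mice of 1 diet, so diet cannot be told apart from array or from place on the slide. The labels describe the samples of a diet as biological replicates and give no cage or litter.

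Matrix metalloproteinases are zinc enzymes, secreted or held at the cell membrane. They are made as inactive precursors and cleave collagens and other matrix proteins once their propeptide is removed. TIMPs bind their active site and block them, and a TIMP2 molecule held by the membrane enzyme MMP14 also helps to activate MMP2. Lysyl oxidases are copper enzymes that oxidise lysines of collagen and elastin so that the fibres become cross-linked, and in the heart the balance of cutting, inhibition and cross-linking bears on how much collagen stands between the muscle cells and how stiff it is.

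Several of these genes were read by more than 1 probe, and the probes of Loxl2 did not read the same difference. The sequences of some of these probes are given here. Loxl2 A_52_P480351, whose difference lay farthest from that of the brightest Loxl2 probe, is not among them. Why the Loxl2 probes differed was not tested. Each probe has 60 bases and is written 5′ to 3′ as in the array design, in lower case. Capitals in the first pair mark the best-scoring match between the Loxl1 and the Loxl2 probe without a gap, 26 bases of which 17 are identical (65.4%), and the other probes carry no capitals.
Loxl1 A_51_P304239: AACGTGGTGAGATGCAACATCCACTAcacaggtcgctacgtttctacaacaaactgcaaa
Loxl2 A_51_P275949: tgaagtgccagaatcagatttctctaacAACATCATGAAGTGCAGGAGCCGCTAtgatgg
Loxl2 A_55_P2131348: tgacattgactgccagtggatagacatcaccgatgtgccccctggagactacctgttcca
Timp2 A_65_P12392: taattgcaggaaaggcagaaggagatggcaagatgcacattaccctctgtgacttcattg
On the mm9 build these lie at chr9:58138570-58138629 on the minus strand, chr14:70092141-70092200 and chr14:70090017-70090076 on the plus strand, and chr11:118171964-118178741 on the minus strand. The Timp2 probe thus spans 6778 bases of the genome, far more than its own length. The array design does not say whether a probe lies in an exon or an untranslated region.

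Values are normalised log2 intensities of the brightest probe of a gene, and a difference is low salt minus normal salt on that scale. Spots had a median intensity of 116 to 147 in each sample and their background a median of 15.5 to 33.5, and 53.0% to 66.3% of spots were well above background. Part of the slide had an uneven signal, so each difference is given where needed with the local difference. This is the same contrast in a running median over spots within 10 rows and 5 columns of the probe. Each spot entered as its deviation from its own mean over the 8 samples. Only spots of probes well above background in 4 or more samples, with no outlier mark in any sample, were used. The size of the local difference exceeded 0.2 for 9.95% of the 18093 genes tested and for 131 of the 145 genes past the threshold (limma adjusted p under 0.05). All 7 cardiomyocyte markers were well above background in all 8 samples. In RNA from whole ventricle, fewer cells of a type and less RNA per cell cannot be told apart.

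No member passed the threshold. Of the 10 genes, 8 were well above background in enough samples to be tested, 0 of these 8 had an adjusted p under 0.05, and 0.801% of all genes tested did (138, or 0.763%, higher and 7, or 0.0387%, lower on low salt). A single member, Timp3, had an unadjusted p under 0.05, against 11.1% of all genes. Timp3 was also the only tested member whose diet groups did not overlap, where 12.8% of all genes had groups that did not overlap, 4.84% with the low salt group below and 7.96% with it above. Of the 8 tested members 3 read higher and 5 lower on low salt, with a median difference of -0.09, against a median of 0.01 over all genes. Read in each dye separately, as the design of the series describes, 0 members differed by 1.5-fold or more with the same sign in both dyes, against 3.3% of all genes.

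**Figure D1:**
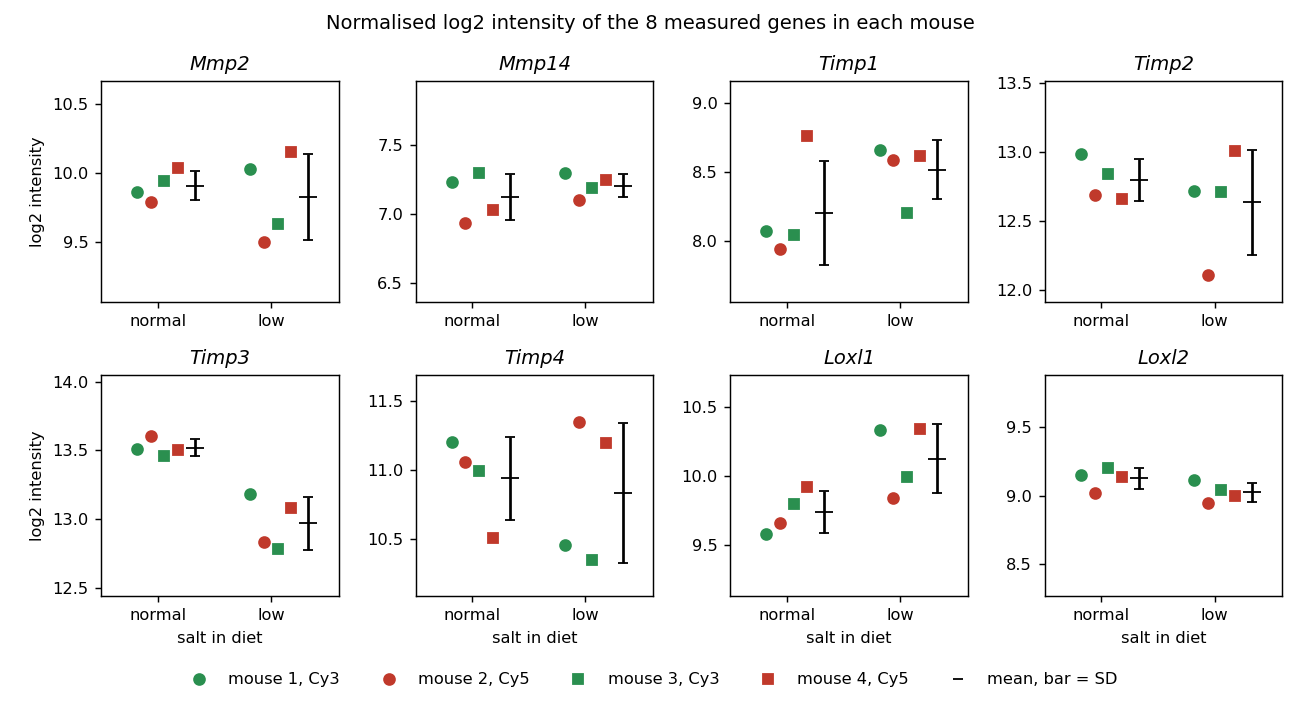
Normalised log2 intensity (vertical axis, each panel spanning the same number of log2 units around its mean) of the 8 tested genes in each mouse on normal or low salt. Colours mark the dye, circles the first array of a diet and squares the other, and the black bar is the mean with its SD (n = 4). Timp3 is the gene whose groups do not overlap, and in Timp4 the Cy3 and Cy5 mice lie in opposite order.

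Timp3 had the largest difference among the tested members. It encodes the inhibitor that stays bound to the matrix and that also blocks several ADAM proteases. Its log2 intensity was 13.51, 13.61, 13.46 and 13.50 in normal salt mice 1 to 4 and 13.19, 12.83, 12.79 and 13.08 in low salt mice 1 to 4. Every low salt mouse lay below every normal salt mouse, and the normal salt mice were close together while the low salt mice spread more widely. The mean was 13.52 ± 0.06 (SD, n = 4) on normal and 12.97 ± 0.19 (n = 4) on low salt, a difference of -0.55 ± 0.18 (SE; 95% interval -0.95 to -0.14), which is a 1.46-fold lower signal. In limma the unadjusted p was 0.0138 and the adjusted p 0.298, so the difference did not pass over all genes. Among Cy3 mice it was -0.50 and among Cy5 mice -0.60. The probe, at chr10:85811696-85811755 on the plus strand of mm9, stood where the signal was even, with a local difference of 0.02, and the difference was -0.56 with the local trend subtracted. Over 25 other settings it lay between -0.66 and -0.45. Most of these could hardly turn its sign. Filters and error models leave the difference of a single probe as it is, and leaving out mice does not make separate groups overlap. The settings that changed the processing of the signal gave -0.57 to -0.54. Timp3 passed in the limma fit without the array block (adjusted p = 0.0354), which treats the 2 mice of an array as unrelated, and in no other setting. In that fit 628 of the 18093 genes tested passed, against 145 in the model used throughout.

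Of the 6 endothelial markers, genes of the cells that line vessels, 5 read lower on low salt, with a median difference of -0.31, and 0 passed the threshold. The mean of the list, each gene centred on its own mean, ranged from 0.01 to 0.30 in normal salt and from -0.27 to 0.01 in low salt mice. All 6 markers were well above background in all 8 samples. The gene whose pattern over the 8 samples lay nearest to that of Timp3 was Hspg2, which encodes the basement membrane proteoglycan perlecan, with a root-mean-square difference of 0.09 log2 units between the centred values. Other marker lists also read lower on low salt, with 0 genes past the threshold in each, while those of macrophages and neutrophils had medians above 0. Fibroblast markers were lower for 4 of 7 genes, with a median of -0.10. Their centred mean ranged from -0.01 to 0.19 in normal and from -0.30 to 0.27 in low salt mice. Smooth muscle and pericyte markers were lower for 5 of 6 genes, with a median of -0.23 and a centred mean from -0.05 to 0.29 in normal and from -0.49 to 0.25 in low salt mice. Cardiomyocyte markers were lower for 5 of 7, with a median of -0.16. Their centred mean ranged from -0.30 to 0.35 in normal and from -0.37 to 0.21 in low salt mice. An unadjusted p under 0.05 was found for 2 of the 7 cardiomyocyte and 2 of the 6 endothelial markers, against 11.1% of all genes. It was found for 1 of the 8 macrophage markers and, in the other lists of this paragraph, for 0. Whether any list differs from other genes was not tested. Atrial markers were lower for 3 of 4, with a median of -1.52 and a centred mean from -1.13 to 1.56 in normal and from -1.56 to 0.55 in low salt mice. Wt1, the single mesothelial marker tested of 3, read -0.31. The part of these cell types in the Timp3 difference was not tested.

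Timp4, the inhibitor gene with the most restricted tissue range and high expression in heart, read in opposite directions in the 2 dyes. Its log2 intensity was 11.21, 11.06, 10.99 and 10.51 in normal salt mice 1 to 4 and 10.46, 11.35, 10.35 and 11.20 in low salt mice 1 to 4. The Cy3 mice, 1 and 3, were lower on low salt and the Cy5 mice, 2 and 4, higher. Among Cy3 mice the difference was -0.70, among Cy5 mice 0.49, and the pooled difference of -0.10 ± 0.42 (SE; adjusted p = 0.939) lies between them. A diet by dye interaction in limma was 1.19 ± 0.16 (SE; unadjusted p = 0.000119, adjusted p = 0.150 over all genes). No gene passed this interaction test at an adjusted p under 0.05, and 6.83% of genes had an unadjusted p under 0.05. With 2 mice of each diet in each dye, a difference between dyes cannot be told apart from one between the mice that carried them.

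Timp1, the inducible inhibitor gene that rises in injured and inflamed tissue, read 8.07, 7.94, 8.04 and 8.76 in normal salt mice 1 to 4 and 8.65, 8.59, 8.20 and 8.62 in low salt mice 1 to 4. In each diet 3 mice lay close together and 1 apart, the high normal salt mouse 4 and the low low salt mouse 3, so the groups overlapped. The means were 8.20 ± 0.37 and 8.51 ± 0.21 (SD, n = 4 each), and the difference of 0.31 ± 0.27 (SE; adjusted p = 0.674) was within the spread between mice. The Timp1 difference was 0.18, 0.20 and 0.21 without normal salt mouse 2, normal salt mouse 3 or low salt mouse 1, and 0.48 without normal salt mouse 4 (unadjusted p = 0.0437, limma adjusted p = 0.411). Over the 25 other settings it ranged from 0.12 to 0.51. The nearest pattern was that of Lyz2, a macrophage marker encoding lysozyme, at 0.12 log2 units. Of the 8 macrophage markers 7 read higher on low salt, with a median of 0.26 and 0 past the threshold. The centred list mean ranged from -0.25 to -0.01 in normal and from 0.04 to 0.28 in low salt mice, and all 8 markers were well above background in all samples. Their part in the Timp1 values was not tested. Of the 9 neutrophil markers 5 were tested, 3 higher and 2 lower, with a median of 0.17 and 0 past the threshold. S100a8 and S100a9, well above background in 7 and 8 samples, read 0.17 ± 0.22 and 0.36 ± 0.36 (SE), while Ngp and Ltf were not well above background in any sample.

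Timp2, which encodes the inhibitor that takes part in the activation of MMP2, was measured by 2 probes. The brighter one read 12.99, 12.69, 12.84 and 12.66 in normal salt mice 1 to 4 and 12.72, 12.11, 12.71 and 13.01 in low salt mice 1 to 4. Low salt mouse 2 was the lowest and mouse 4 the highest of all 8, so both ends of the range were low salt mice. The difference was -0.16 ± 0.26 (SE; adjusted p = 0.832). The signal around that probe was uneven (local difference -0.31), and subtracting the local trend turned its difference to 0.15. The Timp2 probe printed above stood in an even part and read -0.06 ± 0.16 (SE).

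**Figure D2:**
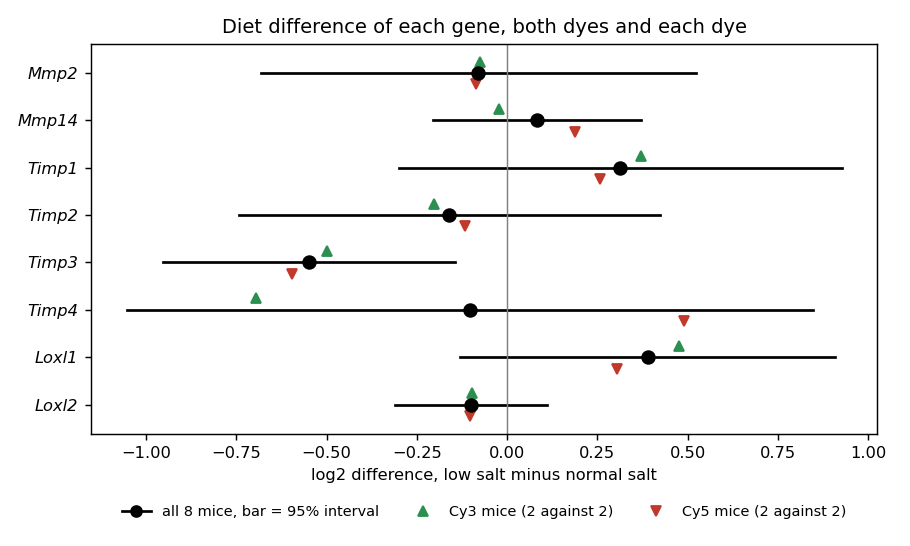
Log2 difference, low salt minus normal salt (horizontal axis), of each tested gene. Black points are the fit over all 8 mice with its 95% interval, and triangles the difference among the 4 mice of each dye; the interval of Timp3, from -0.95 to -0.14, is the one that leaves out 0, and the triangles of Timp4 lie at -0.70 and 0.49.

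Among the proteases, Mmp2, which encodes the gelatinase that fibroblasts secrete steadily, read 9.86, 9.79, 9.94 and 10.03 in normal salt mice 1 to 4 and 10.02, 9.50, 9.63 and 10.15 in low salt mice 1 to 4. Low salt mice 2 and 3 lay below all normal salt mice and low salt mouse 4 above them. The means were 9.91 ± 0.10 and 9.83 ± 0.31 (SD, n = 4 each), with a difference of -0.08 ± 0.26 (SE; 95% interval -0.68 to 0.52; adjusted p = 0.926). The nearest pattern to that of Mmp2 was that of Pdgfra, the receptor gene that marks fibroblasts, at 0.09 log2 units. The centred mean of the 7 fibroblast markers, Pdgfra among them, was 0.04, -0.30, -0.26 and 0.27 in low salt mice 1 to 4. In normal salt mice 1 to 4 it was 0.19, -0.01, 0.03 and 0.04. The list was thus low in the same low salt mice as Mmp2. Among normal salt mice the list was highest in mouse 1 and Mmp2 in mouse 4. All 7 were well above background in all samples, and 0 passed the threshold. Their part in the Mmp2 values was not tested.

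Mmp14, which encodes the membrane-bound collagenase that activates MMP2, read 7.23, 6.94, 7.30 and 7.03 in normal salt mice 1 to 4 and 7.30, 7.10, 7.19 and 7.25 in low salt mice 1 to 4. The low salt values lay within the range of the normal salt values. The difference was 0.08 ± 0.13 (SE; 95% interval -0.20 to 0.37; adjusted p = 0.826). Its spots were dim, between 115 and 155 in intensity against a background of 16.0 to 35.5. Among the other members, the pattern of Loxl2 was nearest to those of Mmp2 and Mmp14, at 0.18 and 0.12 log2 units.

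Mmp9, the gelatinase gene of neutrophils and other inflammatory cells, had 1 probe on 10 spots of each array. The probe was not well above background in any of the 8 samples. On the array of low salt mice 3 and 4, 1 of the 10 spots was bright, at an intensity of 5506 and 4201, and carried the scanner's outlier mark. It was left out. No fold is given for Mmp9, since the probe was not well above background in either group.

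Of the lysyl oxidases, Lox itself could not be compared. Its 2 probes were well above background in 1 low salt mouse and in 0 samples respectively, so no fold is given.

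Loxl1, which encodes the lysyl oxidase needed to renew elastic fibres, read 9.57, 9.65, 9.79 and 9.92 in normal salt mice 1 to 4 and 10.33, 9.84, 9.99 and 10.34 in low salt mice 1 to 4. The groups overlapped only through low salt mouse 2, which lay below normal salt mouse 4. The means were 9.74 ± 0.15 and 10.12 ± 0.25 (SD, n = 4 each), a difference of 0.39 ± 0.23 (SE; 95% interval -0.13 to 0.91; adjusted p = 0.550), or a 1.31-fold higher signal that did not pass. A second Loxl1 probe, at chr9:58145451-58145510 on the minus strand, read 0.38 ± 0.16 (SE). Both stood in even parts, with local differences of 0.06 and 0.01. Over the 25 other settings the Loxl1 difference ranged from 0.10 to 0.54. It was 0.10 when the scanner's own processed intensities were used and 0.25 without low salt mouse 1. Without low salt mouse 2 it was 0.54 (unadjusted p = 0.00958, limma adjusted p = 0.321).

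Loxl2, which encodes a lysyl oxidase linked to fibrosis in the stressed heart, had 3 probes that differed in what they read. The brightest, A_55_P2131348, read 9.15, 9.02, 9.20 and 9.13 in normal salt mice 1 to 4 and 9.11, 8.95, 9.04 and 8.998 in low salt mice 1 to 4. These were the steadiest values of all tested members, and the difference was -0.10 ± 0.09 (SE; 95% interval -0.31 to 0.11; adjusted p = 0.695). A_51_P275949, the probe whose capitals match Loxl1, read 0.07 ± 0.19 (SE). A_52_P480351, at chr14:70095254-70095313, read 0.60 ± 0.26 (SE), and its lowest low salt value was above its highest normal salt value, as for 7.96% of all genes. The first and the last of these had an uneven signal around them (local differences -0.27 and 0.31). With the local trend subtracted the 3 probes read 0.17, 0.05 and 0.28, all higher on low salt. The direction of Loxl2 therefore depends on the probe and on the treatment of the uneven signal.

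The members did not share 1 pattern over the mice. The nearest member to Timp1 was Loxl1 and the reverse, at 0.23 log2 units. The nearest to Timp2 was Mmp2 at 0.18, and the nearest to Timp3 was Loxl2 at 0.26. Timp4 stood farthest from the others, with Mmp14 nearest at 0.39. Genes outside the set came closer in each case. For Mmp14 this was Cysltr1, at 0.05, and for Timp2 it was Dpp7, at 0.06. Sult1a1 was nearest to Timp4 at 0.14, Disp1 to Loxl1 at 0.06 and Wnt11 to Loxl2 at 0.03. The distance grows with how much a gene varies, and each nearest gene was picked out of all genes tested.

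The wider machinery of matrix turnover was read from a list of 65 names outside the members, of which 64 were on the array and 49 were tested. Of these, 28 read higher and 21 lower on low salt, with a median difference of 0.01, the same as over all genes. No gene of the list passed the threshold in the model used throughout. An unadjusted p under 0.05 was found for 5 of the 49, against 11.1% of all genes, and the diet groups did not overlap for 7, against 12.8% of all genes, so both counts were near the background.

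**Figure D3:**
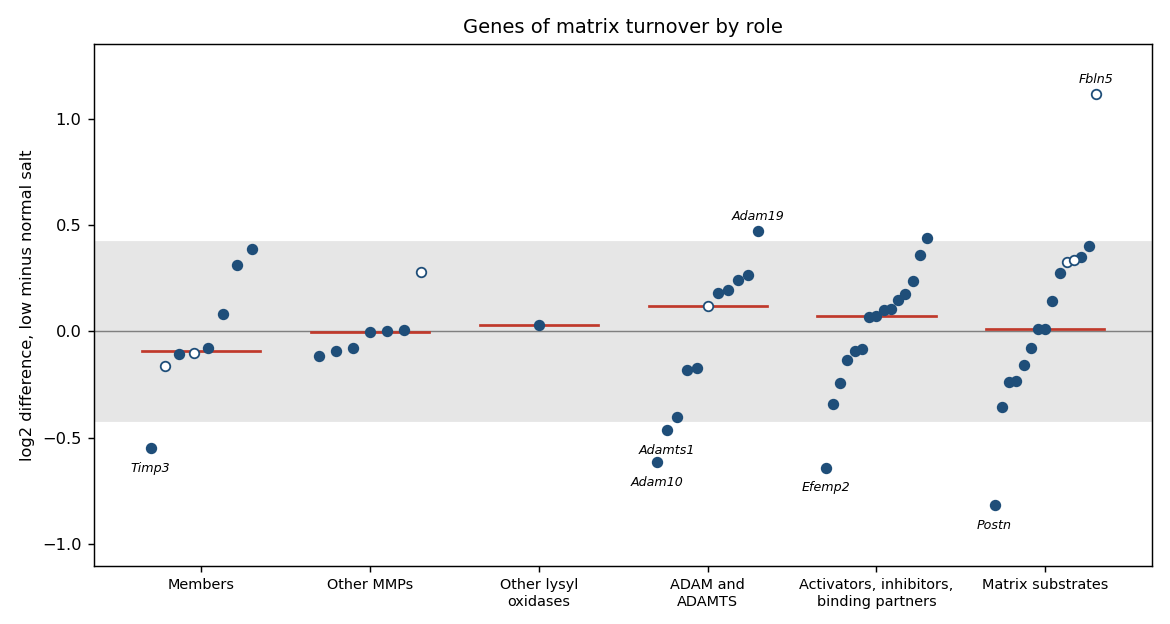
Log2 difference, low salt minus normal salt (vertical axis), of each tested gene by role, with the median of each role as a red line and the range from percentile 5 to percentile 95 of all genes, -0.42 to 0.42, in grey. Open points mark genes in uneven parts of the slide (local difference above 0.2 in size), Fbln5 among them; Timp3 is the member outside the grey range.

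Of 18 further matrix metalloproteinase genes 7 were tested and 11, among them the collagenase genes Mmp8 and Mmp13, were not well above background in 4 samples. The 7 spanned differences from -0.11 to 0.28. Mmp3, encoding stromelysin, read 0.28 ± 0.21 (SE; adjusted p = 0.630), 0.05 among Cy3 and 0.50 among Cy5 mice. The signal around its probe was uneven (local difference -0.20), and Mmp3 read 0.48 with the local trend subtracted (unadjusted p = 0.00748, limma adjusted p = 0.226) and 0.59 with the scanner's processed intensities. Without the array of mice 3 and 4 on low salt it read 0.09. Mmp15 and Mmp17, both for enzymes held at the cell membrane, read -0.11 ± 0.10 and -0.09 ± 0.11 (SE). Loxl3, the single other lysyl oxidase gene tested, read 0.03 ± 0.11 (SE), and Loxl4 was too dim.

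The ADAM and ADAMTS proteases, some of which TIMP3 inhibits, had 11 tested genes, 6 higher and 5 lower on low salt. An unadjusted p under 0.05 was found for 3 of the 11, against 11.1% of all genes, and groups that did not overlap for 4, against 12.8%; whether the group differs from other genes was not tested. Adam10, the sheddase gene that releases Notch and cadherin ectodomains, was 10.21, 10.24, 9.89 and 9.80 in normal salt mice 1 to 4 and 9.44, 9.46, 9.28 and 9.51 in low salt mice 1 to 4. The diets did not overlap, and the difference was -0.61 ± 0.15 (SE; adjusted p = 0.145). With the local trend subtracted it was -0.44, and with the scanner's processed intensities -1.09. Adamts1, the gene of a proteoglycan-cleaving protease, read -0.46 ± 0.14 (SE; adjusted p = 0.246) and Adam19, which encodes a sheddase of neuregulin, 0.47 ± 0.15 (SE; adjusted p = 0.301), each with groups that did not overlap. These 3 and Fbln5 passed without the array block, at limma adjusted p values between 0.0112 and 0.0373. In that fit 628 of the 18093 genes tested passed, against 145 in the model used throughout.

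Among activators, inhibitors and binding partners 15 of 18 names were tested, 9 higher and 6 lower. Groups that did not overlap were found for 0 of the 15, against 12.8% of all genes. Whether this group differs from other genes was not tested. Efemp2, encoding the fibulin that brings lysyl oxidase to elastin, read -0.64 ± 0.32 (SE; adjusted p = 0.497). It was 10.34, 9.92, 9.91 and 9.82 in normal salt mice 1 to 4 and 10.07, 9.69, 8.72 and 8.95 in low salt mice 1 to 4, so the low values came from 1 low salt array. The Efemp2 difference was -0.12 when that array was left out and -1.16 when the other low salt array was. Lcn2, whose protein binds and shields MMP9, read 0.44 ± 0.26 (SE), and Plaur, the urokinase receptor gene, -0.24 ± 0.15 (SE). Over the 25 other settings Lcn2 ranged from 0.19 to 0.69 and Plaur from -0.47 to -0.09. Reck, the gene of a membrane-anchored metalloproteinase inhibitor, read 0.18 ± 0.18 (SE). Plau and Plg were too dim to test.

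All 15 matrix genes were tested, 9 higher and 6 lower. Fbln5, encoding the elastic fibre protein that binds LOXL1, had the largest difference of the list. It was 9.02, 8.97, 8.61 and 8.76 in normal salt mice 1 to 4 and 10.23, 9.60, 9.85 and 10.13 in low salt mice 1 to 4, with no overlap. The difference was 1.11 ± 0.25 (SE; adjusted p = 0.120). A block for the mouse number brought it past the threshold (limma adjusted p = 0.0364), where 241 of the 18093 genes tested passed. So did leaving out low salt mouse 2 (limma adjusted p = 0.0462), where 57 passed. The signal around its probe was uneven (local difference 0.36), and subtracting the local trend left a difference of 0.75 (adjusted p = 0.226). Col4a2, the gene of a basement membrane collagen chain, read 0.40 ± 0.13 (SE; adjusted p = 0.287), and Col4a1, its partner chain, 0.35 ± 0.17 (SE). The fibrillar collagen genes Col1a1, Col1a2 and Col3a1 read 0.33 ± 0.42, -0.24 ± 0.43 and 0.14 ± 0.31 (SE), so each difference was smaller than its standard error. The local difference around the Col1a1 probe, 0.45, was larger than the difference of Col1a1 itself, so no direction is given for it. Thbs2, encoding a thrombospondin that helps to clear MMP2, read -0.35 ± 0.17 (SE).

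Postn, the periostin gene of activated fibroblasts, was picked out after its values were seen, because its point lies lowest in the plot by role. It read 9.18, 9.13, 8.99 and 9.18 in normal salt mice 1 to 4 and 7.86, 7.48, 8.54 and 9.34 in low salt mice 1 to 4. The difference of -0.82 ± 0.43 (SE; adjusted p = 0.509) did not pass, and low salt mouse 4 was the highest of all 8. Leaving out the array with low salt mice 3 and 4 gave -1.45 (limma adjusted p = 0.0155), with low salt then resting on 1 array. That array held low salt mice 1 and 2, which read lowest. In that fit 1098 genes passed, against 145 in the model used throughout.

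**Figure D4:**
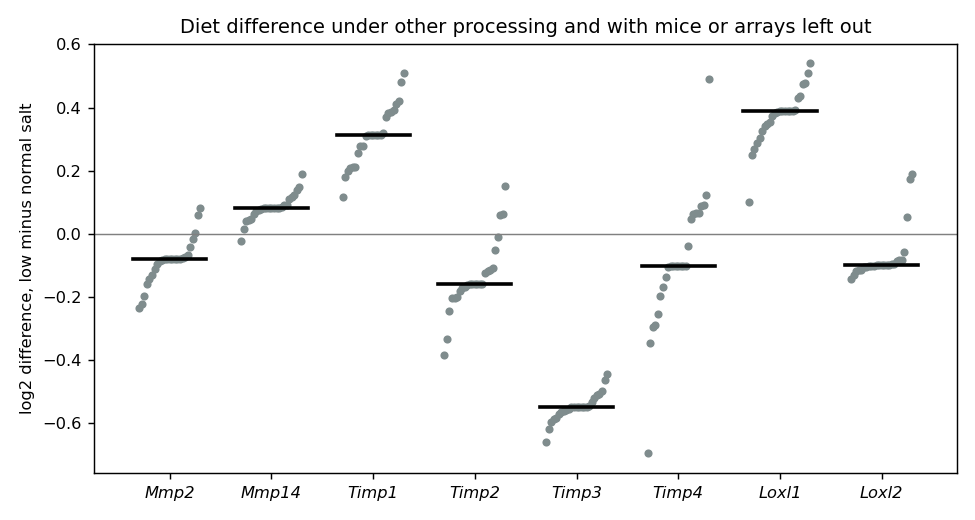
Log2 difference, low salt minus normal salt (vertical axis), of each tested gene in all 8 mice (black line) and under 25 other settings (grey points, in order of size), which change the processing or leave out mice or arrays. Timp3 stays between -0.66 and -0.45, Timp1 and Loxl1 stay above 0, and Mmp2, Mmp14, Timp2, Timp4 and Loxl2 fall on both sides of 0.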

How the data were processed

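Left ventricle RNA of 8 mice was read on 4 two-colour Agilent arrays of 1 slide, each mouse in its own dye, with 44397 spots an array. Per the file headers, the deposited files hold spot intensity and background intensity from Agilent Feature Extraction 11.5.1.1. The series value table was not used, because its rows could not be named. Probes were named through RefSeq by accession (27508), gene name (3544) or synonym (404), and 7973 kept the name in the file. Intensities were corrected by normexp (offset 50) and normalised by loess and Aquantile in limma 3.58.1 (R 4.3.3, statmod 1.5.0). Background values with an outlier mark were replaced by the channel median, and marked spots were left out. A probe had to be well above background in 4 or more samples, which gave 18093 genes, each read from its brightest probe. The model held diet and dye, with array as a random block (correlation 0.562), 2-sided tests and Benjamini-Hochberg adjustment over all genes, threshold 0.05. The model was also run on simulated data with no uneven signal and with planted differences larger than those of the members. That run was a check of the code and does not show how the model behaves on these arrays. P-values measure the spread between these mice together with that between the arrays of a diet, and the number of arrays limits precision.

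Members and lists were chosen with earlier results of these data known. Named were all members, the 3 smallest p of each sublist, and the nearest patterns; Reck, Col4a1, the fibrillar collagens, Postn and the genes named as too dim were added after their values were seen. Same-numbered mice of the 2 diets, which also share a dye, deviated together (correlations 0.304, 0.143, 0.163 and 0.192), so a fit with the mouse number as a block was also run. Other alternatives were the scanner's processed signal, background and normalization choices, filters on dim probes, the mean of probes, the local trend, the array block, single dyes, and each mouse or array left out.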

Additional observations from a re-analysis of the deposited data

Results flagged for a closer look

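Timp1 had 1 mouse far from the other 3 in each diet. Normal salt mouse 4, at 8.76, lay above the others, with a gap of 0.835 of the group's range, and low salt mouse 3, at 8.20, below the others, with a gap of 0.854, both over the limit for 4 samples. Chance passes that limit in about 1 of 20 groups, and 16 groups were looked at. The low minus normal difference of Timp4 differed between the dyes by 1.19 log2 units, lower on low salt in both Cy3 mice against both Cy3 controls and higher in both Cy5 mice; the interaction had an unadjusted p of 0.000119 and an adjusted p of 0.150 in limma.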

How the results depend on the processing

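With 2 arrays a diet, no setting separates diet from array, and Mmp9 and Lox were too dim to compare. The count of members past the threshold was 0 in all settings but the fit without the array block, where it was 1 (Timp3). All genes past it numbered 145, against 36 with the scanner's processed signal, 48 with the local trend subtracted, 628 without the array block, and 0 with nothing between arrays (775 at an unadjusted p under 0.05), 1 value per array (1561), Cy3 alone (1853) or Cy5 alone (1249) in limma. With the replicate block of mouse numbers it was 241, the list count was 1 (Fbln5), and no other call of a member or list gene changed. Leaving out 1 mouse gave 53 to 119 genes, 0 to 1 of the list (Fbln5, without low salt mouse 2) and 0 to 1 members 1.5-fold apart in both dyes (Timp3, without low salt mouse 1). Of the arrays, leaving out the first of normal salt (mice 1 and 2) gave 257 genes and 1 of the list (Adam8), leaving out the first of low salt (mice 1 and 2) gave 70, and leaving out the second of low salt (mice 3 and 4) gave 1098 and 2 of the list (Plat and Postn). Without the array block 4 list genes passed. Signs turned, with the cause not tested, for Timp2 (0.060 processed signal, 0.15 local trend subtracted, 0.063 without the first low salt array), Timp4 (0.12 processed signal, 0.064 local trend subtracted, 0.49 Cy5 alone, 0.087 without the first normal salt array, and -0.35 to 0.091 with 1 mouse left out), Loxl2 (0.052 processed signal, 0.19 mean of probes, 0.17 local trend subtracted), Mmp14 (-0.024 Cy3 alone), Loxl3 (-0.027 Cy3 alone, and -0.013 to 0.071 with 1 mouse left out) and Mmp2 (0.00065 without the second normal salt array (mice 3 and 4), and -0.24 to 0.081 with 1 mouse left out). Timp1, Timp3 and Loxl1 kept their sign in all 25 settings. Settings that change only the filter or the error model leave a difference as it is. For Timp3, whose groups did not overlap, leaving out mice could hardly turn the sign either.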
